A study of Mus musculus with 2 samples.

Results

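To examine the machinery of neurotransmitter release in the embryonic cortex, 39 genes of the presynaptic vesicle and its release site were followed from progenitors to neurons in single-cell RNA-sequencing data. The 39 members were picked by gene symbol from the 32285 genes counted. The rule used no measured level, although the list was drawn up with earlier results of these data known. They comprised 3 synapsins, 4 vesicle membrane glycoproteins, 2 vesicular glutamate transporters, 8 genes grouped as calcium sensors and 4 SNARE proteins. The others were 7 fusion regulators, 7 active zone scaffolds, 3 genes of the Rab3 group and the clathrin adaptor Snap91. Of the calcium sensor group, Syt11 does not bind calcium. The cells came from the dorsal telencephalon of mouse embryos at embryonic day 16.5, in tissue labelled as brain hemispheres, and were profiled with the droplet-based 10x Genomics 3′ chemistry. Only WT libraries, named WT replicate 1 and WT replicate 6, were analysed, so no genotype was compared. The sample titles name the Emx and Dot1l project. In that project Dot1l, a histone methyltransferase gene, is deleted with Emx1-Cre, a driver active in cortical progenitors and their progeny. The knockout was not analysed here. The paper that reports the data names C57BL/6J mice for its single-cell data of this age. The sources used here do not say whether the WT embryos carried Cre or floxed alleles.

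Neurotransmitter is stored in synaptic vesicles, which are tethered at the active zone by scaffolds such as Rims, Bassoon and Piccolo. Vesicles are primed by Unc13 proteins and fuse with the plasma membrane when synaptotagmins sense calcium and the SNARE proteins Snap25, syntaxin and synaptobrevin zip together, with complexins clamping and promoting the step. Nsf and its cofactor Napb then take the SNARE complex apart. In the embryonic cortex, radial glia divide to give intermediate progenitors (IPCs) and neurons, most of which have yet to form synapses, while interneurons arrive from the ventral telencephalon and Cajal-Retzius cells sit at the surface.

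Cell classes were defined by raw UMI counts of marker genes (a UMI, or unique molecular identifier, marks 1 captured mRNA molecule), and no member served as a marker. The classes held 551 radial glia, 498 IPCs, 1476 newborn and 2419 maturing excitatory neurons, 1534 interneurons, 682 striatal neurons and 65 Cajal-Retzius cells, 7225 of the 14571 cells used. Of the markers kept out of the gates, Fabp7 was highest in radial glia, Gadd45g and Btg2 in IPCs, Penk and Bcl11b in striatal neurons, and Calb2 and Cacna2d2 in Cajal-Retzius cells, the classes they mark. Penk separated little, at a mean of 20.2 CPM in striatal neurons and 19.6 in Cajal-Retzius cells, and Bcl11b was also listed as a deep-layer marker. Markers that peaked in another class were Tiam2, highest in maturing rather than newborn neurons, and Cux1, highest in newborn rather than maturing neurons. Cells with striatal markers were thus present, although the source is given as dorsal telencephalon, in tissue labelled as brain hemispheres. The libraries held 74930397 and 68964234 UMIs in all, and median depth in the neural classes ran from 3365 UMIs per cell in interneurons to 10625 in Cajal-Retzius cells. The 5 hemoglobin genes, which mark red blood cells, summed to between 1159.7 and 3852 CPM (counts per 1000000) in the neural classes. They were highest in interneurons, and their part in the results was not tested. The 8 microglia markers summed to between 8.55 and 41.4 CPM, with 5 of the 8 at 0 in Cajal-Retzius cells, and the 6 endothelial markers to between 2.58 and 16.4 CPM. The 5 mural markers summed to 38.5 and 26.9 CPM in radial glia against 3.3 and 4.7 in IPCs, a difference that moves with the first step of the lineage and whose part in it was not tested, and to at most 20.7 CPM elsewhere. The 5 fibroblast markers stayed at or below 9.08 CPM.

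Promoter windows were read from RefSeq, build GRCm38.p6, from 250 bases before to 50 bases after the annotated start, for the 31 of 39 members that have one. They were searched on both strands for TTCAGCACC and GGACAGCGC, the left and right parts of the RE1 element through which REST represses neuronal genes outside neurons, and for the E-box CAGATG, a form bound by proneural helix-loop-helix factors. The 31 members have 43 windows, since some have more than 1 start. The left part stood in 0.371% of all 32851 windows and in 2 of the 43, those of Syn1 and Unc13a. The right part stood in 0.405% of all windows and in 1 of the 43, that of Unc13a. The E-box stood in 17.2% of all windows and in 14% of the member windows (6 of 43), namely those of Syn2, Slc17a6, Rims3, Pclo, Rph3a and Snap91. No match overlapped another in the windows printed here. The windows of Syn1 (chrX:20920869-20921168, minus strand), Unc13a (chr8:71671708-71672007, minus strand), Slc17a6 (chr7:51624387-51624686, plus strand, the second of 2 windows of this gene) and Syt11 (chr3:88772550-88772849, minus strand) are shown. These members followed 4 different courses through the excitatory lineage, and Syn1 and Unc13a are also the only members whose windows match a part of RE1. Where a gene had more than 1 window, the one with the most motifs was taken. The matches printed are therefore not typical of the members or of these courses. Each is printed 5′ to 3′ in the direction of its gene, and capitals mark the matches. In Unc13a both parts lie on the opposite strand and therefore read as GCGCTGTCC, starting at base 256, and GGTGCTGAA, starting at base 273. The match begins at base 19 in Syn1 and at base 46 in Slc17a6, and Syt11 holds none of the motifs.
Syn1: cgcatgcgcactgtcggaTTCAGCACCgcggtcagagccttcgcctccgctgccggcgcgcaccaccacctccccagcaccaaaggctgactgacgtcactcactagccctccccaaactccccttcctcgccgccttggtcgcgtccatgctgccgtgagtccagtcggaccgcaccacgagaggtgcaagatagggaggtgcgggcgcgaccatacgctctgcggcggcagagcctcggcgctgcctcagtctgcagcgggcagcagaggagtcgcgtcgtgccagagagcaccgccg
Unc13a: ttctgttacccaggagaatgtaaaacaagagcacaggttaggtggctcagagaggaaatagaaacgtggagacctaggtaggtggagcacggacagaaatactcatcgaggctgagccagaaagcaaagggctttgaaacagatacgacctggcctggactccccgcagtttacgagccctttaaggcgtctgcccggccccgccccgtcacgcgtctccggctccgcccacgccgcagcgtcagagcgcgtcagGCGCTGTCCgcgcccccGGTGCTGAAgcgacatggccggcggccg
Slc17a6: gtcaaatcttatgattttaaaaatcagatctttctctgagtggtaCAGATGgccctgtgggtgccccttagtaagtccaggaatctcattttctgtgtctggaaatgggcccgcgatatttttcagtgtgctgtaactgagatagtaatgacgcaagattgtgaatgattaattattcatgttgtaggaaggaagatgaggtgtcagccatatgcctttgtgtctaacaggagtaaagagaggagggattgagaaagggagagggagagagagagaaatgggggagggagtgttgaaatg
Syt11: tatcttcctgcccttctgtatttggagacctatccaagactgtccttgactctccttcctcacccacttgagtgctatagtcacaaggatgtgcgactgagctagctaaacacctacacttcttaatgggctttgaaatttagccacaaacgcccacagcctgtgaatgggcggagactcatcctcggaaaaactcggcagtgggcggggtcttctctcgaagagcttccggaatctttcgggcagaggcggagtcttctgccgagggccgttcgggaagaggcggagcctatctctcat

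Levels are given as CPM, the UMIs of a gene per 1000000 UMIs of all cells of a class in a library, with WT replicate 1 first and WT replicate 6 second. Differences are log2 differences of the first-named class minus the second, ± the standard error from edgeR's quasi-likelihood test, and a member was called at a Benjamini-Hochberg adjusted p below 0.05 over all genes tested. Each class had 2 libraries, so that these p-values measure only the spread between 2 samples. Most members were highest late in the excitatory lineage: 27 of 39 peaked in maturing neurons in both libraries, 5 in newborn neurons, 2 in IPCs and 3 in radial glia, and 2 peaked in different classes in the 2 libraries. Over all 7 classes, Cajal-Retzius cells held the highest level of 14 members and interneurons that of 5, whereas maturing excitatory neurons held that of Slc17a7 and Syt4 alone. Of those 14, Syn1, Syp, Syt7, Unc13a, Napb, Pclo and Rab3a passed no test between Cajal-Retzius cells and maturing neurons. For 8 members the libraries differed in which class was highest. These peaks are a description, and neighbouring classes in such an order often lay within the spread of the libraries. They rest on plain CPM, and the share of all genes that peak in each class was not counted.

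**Figure D1:**
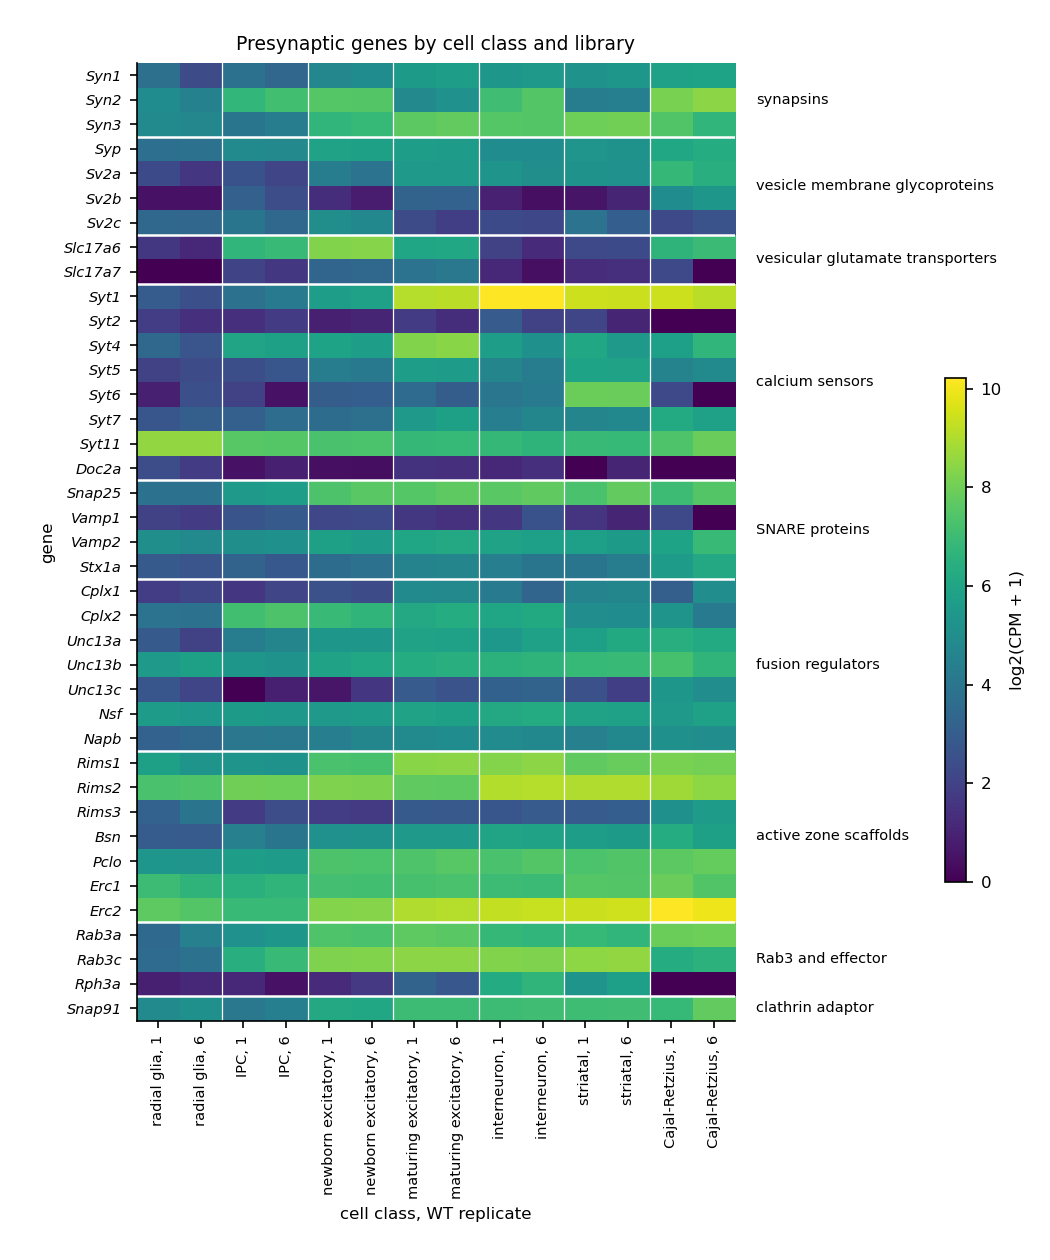
Level of each of the 39 members (rows, by role) in the 7 neural classes of WT replicates 1 and 6 (columns), coloured by log2(CPM + 1), with colours to be compared along a row and not between genes. Most rows brighten from radial glia to maturing neurons, while Syt11 is highest in radial glia and Slc17a6 in newborn neurons.

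From radial glia to IPCs, 14 of the 31 members tested rose and 4 fell, beside 34.9% of all genes called in either direction (15.3% higher, 19.5% lower). From IPCs to newborn neurons 26 of 35 rose and 2 fell, beside 42.9% of all genes called (20.9% higher, 22.0% lower). From newborn to maturing neurons 27 of 39 rose and 7 fell, beside 47.0% (24.6% higher, 22.4% lower). All cells came from embryos of the same age, so a rise or fall is a difference between classes and not a course followed in time. The maturing class holds deep-layer and upper-layer cells, so maturation and layer cannot be told apart at the last step. The members' median difference was 0.59, 1.08 and 0.52 at the 3 steps, against a median within 0.01 of 0 over all genes tested. Syt1, Unc13a, Napb, Bsn, Rab3a and Rab3c were called higher at every step. Among these, the first call of Syt1 is between 2 classes in which a smaller share of cells, at equal depth, held the gene than in erythroid cells, and it was lost under 3 alternatives. A further 8 members (Syn1, Syn3, Syt5, Vamp2, Stx1a, Unc13b, Rims1 and Pclo) passed no test between the progenitor classes and rose at both later steps. Members below the filter on low counts stayed untested: Sv2a, Slc17a7, Syt2, Syt6, Doc2a, Cplx1, Unc13c and Rph3a at the first step, and Syt2, Doc2a, Unc13c and Rph3a at the second.

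**Figure D2:**
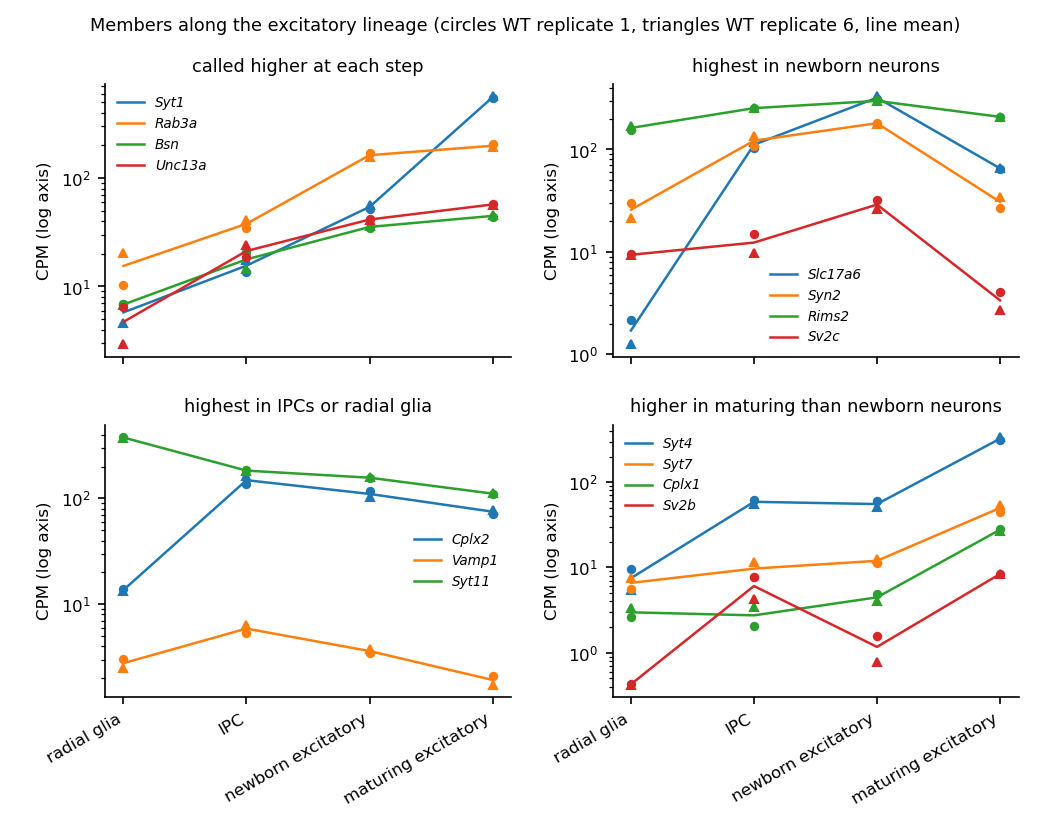
CPM on a log axis in radial glia, IPCs, newborn and maturing excitatory neurons, with a circle for WT replicate 1, a triangle for WT replicate 6 and a line through their mean, for 15 members grouped by course. Unc13a climbs at every step, Syt1 is below its erythroid level in radial glia and IPCs and climbs afterwards, Slc17a6 and Syn2 climb to newborn neurons and fall afterwards, and Syt11 declines from radial glia on.

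The vesicular glutamate transporters load glutamate into vesicles. Slc17a6 (VGLUT2) stood at 2.16 and 1.26 CPM in radial glia, 104 and 119 in IPCs, 311 and 329.5 in newborn and 64.5 and 66.3 in maturing neurons. No neighbouring classes overlapped, and the newborn neurons were highest in both libraries. The first rise (6.02 ± 0.26, adjusted p = 2.3e-08) was the largest of any member at that step, the second was 1.62 ± 0.095, adjusted p = 1.1e-06, and the level then fell by 2.23 on the log2 scale (adjusted p = 1.9e-08). Slc17a7 (VGLUT1), the main transporter of the mature cortex, had 0 UMIs in radial glia and 13 in IPCs over both libraries, which sets IPCs at least 4.27-fold higher against a floor of 3 counts over both libraries. It read 9.15 and 9.57 CPM in newborn and 13.7 and 15.9 in maturing neurons, low in each class yet without overlap. It rose from IPCs by 1.86 ± 0.35, adjusted p = 0.00213, and again by 0.72 ± 0.16, adjusted p = 0.00492.

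Synapsins coat vesicles and hold them in the reserve pool. Syn2 read 30.3 and 21.4 CPM in radial glia, 107 and 136 in IPCs, 182 and 179 in newborn and 27 and 34.5 in maturing neurons. The last value lay within the range of progenitor levels, far below newborn neurons in both libraries. Its differences were 2.27 ± 0.19, adjusted p = 3.3e-06, then 0.66 ± 0.11, adjusted p = 9.3e-04, then -2.49 ± 0.1, adjusted p = 1.2e-07. Syn3 instead stood at 14.8 and 19.2 CPM in IPCs, 105 and 115 in newborn and 197 and 214 in maturing neurons, and its differences were 2.79 ± 0.14, adjusted p = 4.7e-07 and 0.95 ± 0.071, adjusted p = 6.1e-06. Both steps separated the classes in each library. Syn1, whose window holds the left part of RE1, read 12.5 and 4.2 CPM in radial glia, 25.4 and 30.1 in newborn and 45.8 and 51.6 in maturing neurons. Its radial glia and IPC values overlapped, and it rose at the later steps by 1.36 ± 0.21, adjusted p = 6.8e-04 and 0.86 ± 0.11, adjusted p = 1.6e-04.

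The vesicle membrane glycoproteins are abundant constituents of the vesicle whose exact roles vary. Syp (synaptophysin) read 12.1 and 13 CPM in radial glia, 28.4 and 26.9 in IPCs, 57.7 and 54.9 in newborn and 52.5 and 49.5 in maturing neurons. It was higher in each later class than in radial glia in both libraries, with rises of 1.18 ± 0.22, adjusted p = 0.00153 and 1.11 ± 0.13, adjusted p = 9.4e-05 and no call at the last step. Sv2a, the binding site of the antiepileptic drug levetiracetam, rose from 4.94 and 3.42 CPM in IPCs to 19 and 14 and 44.4 and 45.1 (2.05 ± 0.32, adjusted p = 7.1e-04, then 1.5 ± 0.13, adjusted p = 1.9e-05). Sv2c took the opposite course at the end, with 31.8 and 26.2 CPM in newborn and 4.06 and 2.68 in maturing neurons, without overlap (-3.04 ± 0.2, adjusted p = 2.9e-06), after a rise of 1.31 ± 0.22, adjusted p = 0.00105 from IPCs. Sv2b was low throughout and uneven in its course. It had 2 UMIs in radial glia and 29 in IPCs, a ratio of 14.3 (95% counting interval 3.61 to 124), and read 7.83 and 4.28 CPM in IPCs, 1.55 and 0.785 in newborn and 8.47 and 8.31 in maturing neurons (-2.28 ± 0.5, adjusted p = 0.00498, then 2.91 ± 0.32, adjusted p = 7.7e-05). Its first rise was lost when likely doublets were kept (adjusted p = 0.0635, range over alternatives 5.85e-05 to 0.0635).

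Calcium sensors couple calcium entry to fusion. Syt1, the fast sensor of synchronous release, read 6.92 and 4.62 CPM in radial glia, 13.6 and 17.5 in IPCs, 52.1 and 56.2 in newborn and 546 and 567 in maturing neurons. Every class lay above the one before it in both libraries, and the last step was the largest rise of any member there (3.42 ± 0.077, adjusted p = 4.9e-09, after 1.89 ± 0.16, adjusted p = 1.0e-05). The first step (1.46 ± 0.33, adjusted p = 0.00533) lost its call with DESeq2, with stricter gates and with Leiden clusters, where the difference was 0.026 (adjusted p = 0.955, range over alternatives 9.89e-05 to 0.955). The Syt1 level of both progenitor classes was below the 43.1 and 41.2 CPM of erythroid cells. Syt4, a synaptotagmin of dense-core vesicles, read 9.52 and 5.45 CPM in radial glia, 62.2 and 55.6 in IPCs, 59.9 and 50.8 in newborn and 309.5 and 339 in maturing neurons. IPCs and newborn neurons overlapped, between steps of 3.01 ± 0.24, adjusted p = 2.3e-06 and 2.61 ± 0.091, adjusted p = 5.0e-08. Syt7, a slow high-affinity sensor, came late: it read 11.2 and 12.7 CPM in newborn and 45.2 and 54.6 in maturing neurons (2.11 ± 0.13, adjusted p = 1.7e-06) and passed no earlier test. Syt5, a calcium-binding relative of Syt1, rose from 4.53 and 5.56 CPM in IPCs to 18.6 and 16.3 and 52.1 and 48.9 (1.88 ± 0.26, adjusted p = 3.4e-04, then 1.59 ± 0.11, adjusted p = 3.0e-06).

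Syt11, a synaptotagmin that does not bind calcium, ran against most other genes grouped as calcium sensors. It stood at 380.2 and 373 CPM in radial glia, 185 and 181 in IPCs, 155 and 159 in newborn and 109.8 and 112 in maturing neurons. Radial glia were highest in both libraries and no step overlapped, and the first and last falls passed the test (-1 ± 0.11, adjusted p = 3.9e-05 and -0.44 ± 0.062, adjusted p = 3.8e-04) while the middle one did not (-0.13 ± 0.08, adjusted p = 0.223). Syt6 rose from IPCs to newborn neurons by 2.18 ± 0.52, adjusted p = 0.00758, at only 7.08 and 7.37 CPM, and lost that call with Leiden clusters. Doc2a, a sensor of spontaneous and asynchronous release, rose at the last step by 2.42 ± 0.53, adjusted p = 0.00488, from 0.345 and 0.314 to 1.85 and 1.64 CPM, a call lost with DESeq2. Its highest level was nevertheless that of radial glia in both libraries (mean 3.42 CPM), and its earlier steps were untested. Syt2, the fast sensor of hindbrain and some inhibitory synapses, stayed at or below 6.6 CPM in every class and library and was never called.

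The SNARE proteins form the fusion complex itself. Snap25 read 13 and 13 CPM in radial glia, 43.7 and 50 in IPCs, 164 and 190.5 in newborn and 182 and 205 in maturing neurons. It rose at the first 2 steps (1.88 ± 0.2, adjusted p = 2.2e-05 and 2.01 ± 0.11, adjusted p = 8.2e-07), and the newborn and maturing ranges overlapped. Within the maturing class, deep-layer cells lay above newborn neurons and upper-layer cells below them in both libraries, as given below. Vamp2 (synaptobrevin 2) rose late and little, from 32.5 and 33.8 CPM in IPCs to 55.1 and 49 and 63.6 and 70.4 (0.74 ± 0.13, adjusted p = 0.00151, then 0.42 ± 0.089, adjusted p = 0.00404). Stx1a (syntaxin 1A) read 8.65 and 5.99 CPM in IPCs, 11.2 and 13.5 in newborn and 22.9 and 24.3 in maturing neurons (0.84 ± 0.28, adjusted p = 0.0334, then 0.98 ± 0.13, adjusted p = 2.6e-04). Vamp1, the synaptobrevin of brainstem and spinal neurons, was at most 6.41 CPM in the neural classes, and its fall at the last step (-0.85 ± 0.31, adjusted p = 0.0472) was lost under 6 alternatives.

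Among the fusion regulators, complexins bind the assembled SNARE complex. Cplx2 stood at 13.8 and 13.4 CPM in radial glia, 136 and 161 in IPCs, 118 and 102 in newborn and 71.4 and 78.5 in maturing neurons. It was highest in IPCs in both libraries, after a rise of 3.48 ± 0.17, adjusted p = 5.1e-08 and before falls of -0.34 ± 0.11, adjusted p = 0.0298 (lost with DESeq2) and -0.5 ± 0.087, adjusted p = 0.00142. Cplx1 read 4.83 and 4.08 CPM in newborn and 28.4 and 27 in maturing neurons, without overlap (2.69 ± 0.15, adjusted p = 1.0e-06). The Unc13 proteins prime vesicles. Unc13a, whose window holds both parts of RE1, read 6.49 and 2.94 CPM in radial glia, 18.5 and 23.9 in IPCs, 41.8 and 41.1 in newborn and 58.1 and 56 in maturing neurons, and each step passed the test (2.2 ± 0.36, 1.06 ± 0.15 and 0.52 ± 0.081, adjusted p = 5.5e-04, 4.0e-04 and 7.2e-04). Its classes did not overlap in either library. Unc13c rose at the last step by 2.21 ± 0.44, adjusted p = 0.00281 at a low level, and Unc13b by 0.78 ± 0.13, adjusted p = 0.00111 and 0.43 ± 0.087, adjusted p = 0.00322. Nsf and Napb recycle SNARE complexes. Nsf read 48.4 and 42.8 CPM in radial glia and 58.1 and 55.2 in maturing neurons, with 1 call (0.32 ± 0.084, adjusted p = 0.0116), and Napb rose in steps of 0.84 ± 0.27, 0.57 ± 0.2 and 0.44 ± 0.13.

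Active zone scaffolds position vesicles beside calcium channels. Rims1 read 54.9 and 38.2 CPM in radial glia, 38.3 and 35.9 in IPCs, 154 and 149 in newborn and 335 and 347 in maturing neurons, and rose by 2.12 ± 0.1, adjusted p = 3.0e-07 and 1.22 ± 0.066, adjusted p = 6.9e-07. Its paralogue Rims2 was already at 154 and 169.9 CPM in radial glia and 255 and 251 in IPCs, reached 301 and 295 in newborn neurons and stood at 209.5 and 206 in maturing neurons (-0.46 ± 0.065, adjusted p = 3.8e-04). Newborn neurons were highest for Rims2 in both libraries, and maturing neurons for Rims1. Pclo (Piccolo) rose from 50.7 and 49.6 CPM in IPCs to 161 and 159.9 in newborn neurons (1.77 ± 0.092, adjusted p = 5.4e-07), and Bsn (Bassoon) climbed from 6.92 and 6.71 CPM in radial glia to 43.8 and 45.7 in maturing neurons, with a first step of 1.42 ± 0.31, adjusted p = 0.00412 that was lost with DESeq2. Erc2 dipped before it rose. It read 204 and 176 CPM in radial glia, 117 and 115 in IPCs, 321 and 323 in newborn and 505 and 534 in maturing neurons (-0.67 ± 0.12, adjusted p = 0.00112, then 1.57 ± 0.085 and 0.74 ± 0.066). Rims3 fell from 8.22 and 14.3 to 2.47 and 4.28 CPM at the first step (-1.69 ± 0.44, adjusted p = 0.0112, lost with DESeq2) and rose at the last by 1.39 ± 0.26, adjusted p = 0.00196. Erc1 was called once, between IPCs and newborn neurons (0.67 ± 0.093, adjusted p = 3.3e-04).

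The Rab3 proteins are vesicle GTPases, and Rph3a (rabphilin) is their effector. Rab3c read 10.8 and 13.4 CPM in radial glia, 86.9 and 120.2 in IPCs, 299.7 and 306 in newborn and 344 and 345 in maturing neurons, so that most of its rise came before the last step (3.13 ± 0.22, adjusted p = 6.8e-07, 1.64 ± 0.13, adjusted p = 7.5e-06, then 0.24 ± 0.066, adjusted p = 0.014). Rab3a rose by 1.32 ± 0.27, adjusted p = 0.00245 at the first step, to 34.6 and 41.1 CPM in IPCs, and by 2.2 ± 0.11, adjusted p = 5.3e-07 at the second, to 169.7 and 155 in newborn neurons. Neither gene had overlapping neighbours. Rph3a was at most 2.2 CPM up to newborn neurons and read 8.56 and 5.89 in maturing neurons (2.05 ± 0.35, adjusted p = 0.00117). Snap91, the adaptor AP180 that recruits clathrin to retrieve vesicle membrane, read 28.5 and 34 CPM in radial glia, 16.1 and 20.5 in IPCs, 70.1 and 67.5 in newborn and 127 and 128 in maturing neurons. It was lowest in IPCs in both libraries, rose from there by 2 ± 0.15, adjusted p = 5.0e-06 and by 0.95 ± 0.068, adjusted p = 4.4e-06, and its first fall (-0.74 ± 0.22, adjusted p = 0.0208) was lost with DESeq2 and with Leiden clusters.

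To compare single cells at equal depth, each cell was thinned to 2000 UMIs and the members with at least 1 UMI were counted. The mean number per cell was 2.23 and 2.02 in radial glia, 2.63 and 2.81 in IPCs, 5.01 and 5.02 in newborn neurons and 6.11 and 6.31 in maturing neurons. It was 5.87 and 6.09 in interneurons, 5.89 and 6.18 in striatal neurons and 7.12 and 7.22 in Cajal-Retzius cells. Of the background classes, endothelial (1.02 and 0.9), erythroid (0.59 and 0.436) and mural cells (1.23 and 0.882) were below every neural class in both libraries. Microglia (1.625 and 2.42, 32 cells) were above radial glia in replicate 6, and fibroblasts (3 and 1, 11 cells) were above radial glia and IPCs in replicate 1. Thinning left out 229 interneurons and at most 18 cells of any other neural class. The share of cells with a Syt1 UMI was 1.65% in radial glia (exact 95% interval 0.758 to 3.11%), 9.2% in newborn neurons, 55.1% in maturing neurons and 67.1% in interneurons, beside 1.18% in endothelial and 4.25% in erythroid cells. Unthinned, the shares were 4.36%, 22.7%, 86.3%, 73.6%, 3.53% and 7.09% in the same order. The intervals cover counting error only. A Slc17a6 UMI was found in 43.1% of thinned newborn neurons (80.3% unthinned) and a Syt11 UMI in 52.3% of thinned radial glia (87.7% unthinned), against 0.75% and 2.5% of thinned erythroid cells. At 2000 UMIs, 12 members in radial glia (among them Syt1, Snap25, Slc17a6, Rab3a and Rab3c) and 8 in IPCs (among them Syt1 and Syt5) had a share at or below that of erythroid cells, and are read as background there. Median depth before thinning was 2960 and 3690 UMIs in erythroid, 11674 and 14039 in endothelial cells, and 8392.5 and 8125 in radial glia.

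**Figure D3:**
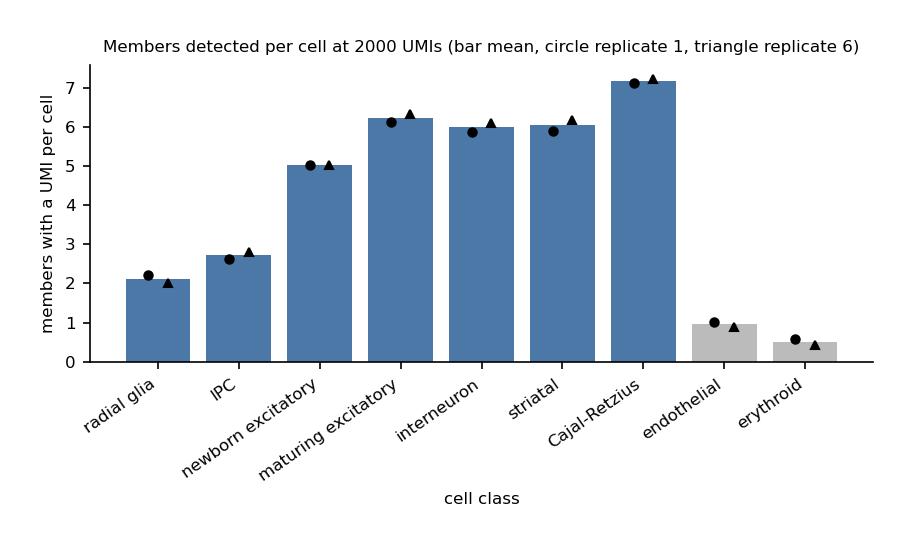
Number of members with at least 1 UMI per cell after thinning to 2000 UMIs, by class, as the mean of the 2 WT libraries (bars, grey for endothelial and erythroid cells) with a circle for replicate 1 and a triangle for replicate 6. The number climbs from 2.12 in radial glia to 6.21 in maturing neurons, and Cajal-Retzius cells are highest at 7.17.

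Within maturing excitatory neurons, cells with deep-layer markers (299 and 304 cells) were compared with those carrying upper-layer markers (728 and 848 cells). Of 38 members tested, 10 were higher in deep-layer cells and 3 lower, beside 18.4% of all genes called (11.3% higher, 7.13% lower). The median difference of the members was 0.14 against -0.0087 over all genes. Snap25 stood at 332 and 394 CPM in deep-layer and 123 and 132 in upper-layer cells, a difference of 1.48 ± 0.1, adjusted p = 1.6e-05. Syt6 was at 37.8 and 23.3 CPM in deep-layer cells and 1.67 and 1.56 in upper-layer cells (4.19 ± 0.32, adjusted p = 2.9e-05). For both genes, which were not called between newborn and maturing neurons, newborn neurons lay between the layers in each library. Neither gene overlapped between the layers, and the same held for Syn2 (48 and 64.7 against 18.6 and 21.7 CPM, 1.45 ± 0.16, adjusted p = 2.7e-04). Rph3a (2.19 ± 0.32), Sv2b (1.89 ± 0.21), Unc13c (1.37 ± 0.29) and Unc13b (0.94 ± 0.1) were also higher in deep-layer cells. Calls for Syt5 (0.42 ± 0.1) and Pclo (0.37 ± 0.1) were lost with DESeq2 and without the low-count filter, and that for Unc13c with DESeq2. The call for Slc17a7 (0.62 ± 0.18) was lost under 5 of 9 alternatives. Slc17a6 was lower, at 32.9 and 33.4 CPM in deep-layer against 78.1 and 80.8 in upper-layer cells (-1.29 ± 0.1, adjusted p = 2.5e-05), as was Syt4, at 173 and 179 against 349 and 393 (-1.1 ± 0.091, adjusted p = 4.5e-05). The upper-layer cells were higher in both libraries for each, whereas Rab3c (-0.29 ± 0.083, adjusted p = 0.0385) lost its call under several alternatives. With the library as a replicate block, 5 members were lower in deep-layer cells, Rims1 and Rims3 in addition.

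Interneurons release GABA, and at this stage they migrate through the cortex. Compared with maturing excitatory neurons, 7 of 39 members were higher in them and 15 lower, beside 42.8% of all genes called (21.0% higher, 21.8% lower). Rph3a stood at 77.4 and 103 CPM in interneurons and 8.56 and 5.89 in maturing neurons (3.56 ± 0.19, adjusted p = 7.4e-07). Syt1 read 1184 and 1155 CPM against 546 and 567 (1 ± 0.079, adjusted p = 1.2e-05). Rims2 stood at 519 and 544 against 209.5 and 206 (1.28 ± 0.084, adjusted p = 3.4e-06). Each of these was higher in interneurons in both libraries, as was Syn2 at 133 and 177 CPM (2.25 ± 0.15, adjusted p = 3.3e-06). Syt6, Bsn and Nsf (differences 0.78 ± 0.25, 0.34 ± 0.088 and 0.3 ± 0.085) were called as well, and all 3 calls were lost with DESeq2 and without the low-count filter.

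The glutamate transporters were nearly absent from interneurons: Slc17a6 read 3 and 1.31 CPM and Slc17a7 1.2 and 0.328, against 64.5 and 66.3 and 13.7 and 15.9 in maturing neurons (-4.96 ± 0.21, adjusted p = 1.6e-07, and -4.29 ± 0.39, adjusted p = 3.0e-05). The share of thinned interneurons with a Slc17a7 UMI was at or below that of erythroid cells. Syt4 stood at 51.9 and 33.8 CPM against 309.5 and 339 (-2.99 ± 0.16, adjusted p = 9.5e-07). Rab3a read 111 and 104 CPM against 205 and 192 (-0.96 ± 0.089, adjusted p = 3.3e-05), and the libraries of the 2 classes did not overlap for either gene. Among the lower members were also Sv2b (-3.78 ± 0.44), Syt5 (-1.3 ± 0.14), Syt7 (-1.24 ± 0.15), Cplx1 (-1.1 ± 0.22), Syp (-0.83 ± 0.11) and Stx1a (-0.53 ± 0.16, lost with DESeq2 and with the stricter cell filter). Sv2a, Erc1, Vamp2, Syn3 and Rab3c differed by less, down to -0.24 for Rab3c.

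**Figure D4:**
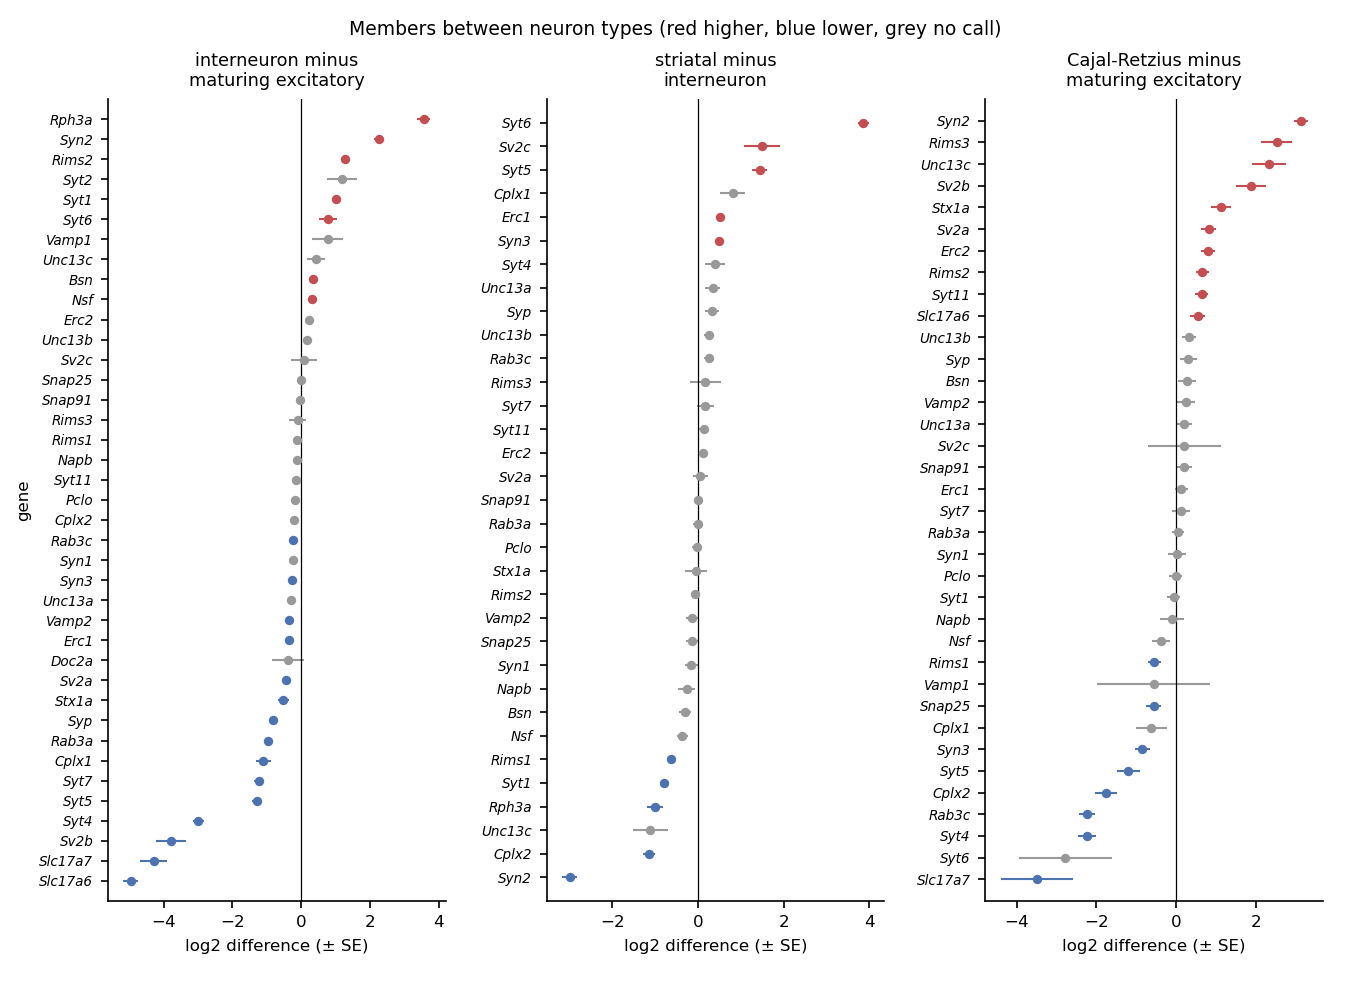
Log2 differences (± SE, 2 libraries a class) of the members between interneurons and maturing excitatory neurons, striatal neurons and interneurons, and Cajal-Retzius cells and maturing excitatory neurons, in red or blue where called at an adjusted p below 0.05 and grey elsewhere (Rph3a, with 0 UMIs in Cajal-Retzius cells, is left out there). Syn2 lies far to the right in interneurons and Cajal-Retzius cells and far to the left in striatal neurons, and Syt6 far to the right in striatal neurons.

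Striatal neurons are GABAergic like interneurons, and 23 of the 33 members tested between these classes were not called. Higher and lower calls numbered 5 each, beside 20.4% of all genes (9.37% higher, 11.0% lower). Syt6, a synaptotagmin best known from the sperm acrosome, stood at 241 and 234 CPM in striatal neurons and 15 and 17.7 in interneurons (3.86 ± 0.13, adjusted p = 7.6e-09). No library of one class approached the other. Syt5 read 59.3 and 58.1 CPM against 24.3 and 18.7 (1.44 ± 0.17, adjusted p = 1.3e-04), while Sv2c (1.49 ± 0.42), Erc1 (0.52 ± 0.1) and Syn3 (0.5 ± 0.1) lost their calls under an alternative (DESeq2 for the first 2, Leiden clusters for Syn3). Syn2 stood at 18.7 and 20.5 CPM against 133 and 177 (-2.99 ± 0.18, adjusted p = 4.3e-07). Cplx2 stood at 31.6 and 30.4 against 64.5 and 71.9 (-1.14 ± 0.14, adjusted p = 2.0e-04). Both were lower in striatal neurons in each library, as were Syt1 (682 and 682 CPM, -0.78 ± 0.095, adjusted p = 1.3e-04) and Rims1 (-0.62 ± 0.11, adjusted p = 0.00161). Rph3a was lower as well (-1 ± 0.18, adjusted p = 0.00218), a call lost with Leiden clusters. With the library as a block, 8 members rather than 5 were higher in striatal neurons, with Cplx1, Rab3c and Syt4 added.

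The GABAergic classes were not uniform. Interneurons were divided by Lhx6 and Nxph1, genes of the medial ganglionic eminence lineage, against Adarb2 and Prox1, genes of the caudal lineage, and striatal neurons by Six3 and Drd2 against Ebf1 and Isl1. These values are given without a test. Syt1 read 1445 and 1542 CPM in Lhx6/Nxph1 cells and 588 and 516 in Adarb2/Prox1 cells, and Rph3a 109.6 and 153 and 23 and 35.8. Both were higher in Lhx6/Nxph1 cells in each library. Syt6 read 331 and 351 CPM in Six3/Drd2 striatal cells and 128 and 144 in Ebf1/Isl1 cells. Rph3a showed the reverse, at 11.2 and 10 and 71.9 and 87.2 CPM, and so did Syt4, at 30.3 and 5.73 and 123 and 86. The subclasses did not overlap for any of these 5 pairs of values. Syt1 in Adarb2/Prox1 cells lay below Six3/Drd2 striatal cells (837 and 874 CPM). It overlapped Ebf1/Isl1 striatal cells (593 and 541 CPM) and the maturing excitatory neurons given above. The higher Syt1 level of interneurons as a class thus did not hold for Adarb2/Prox1 cells.

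**Figure D5:**
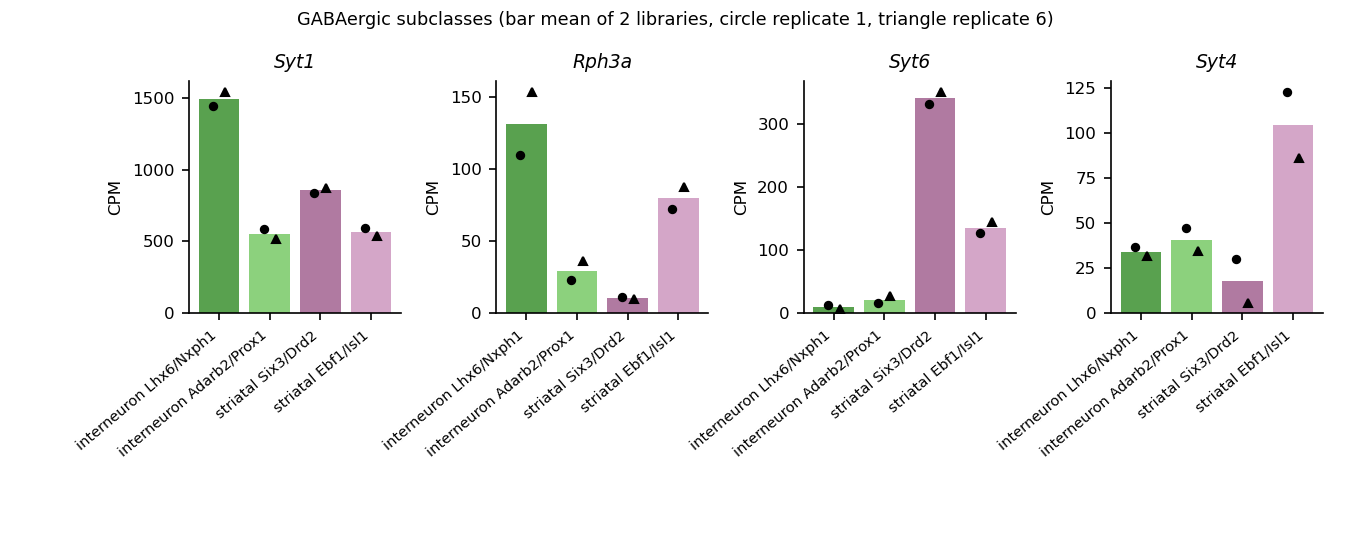
CPM of Syt1, Rph3a, Syt6 and Syt4 in 2 subclasses each of interneurons and striatal neurons, as the mean of 2 libraries (bars) with a circle for WT replicate 1 and a triangle for WT replicate 6. Syt1 and Rph3a are higher in Lhx6/Nxph1 interneurons, and Syt6 in Six3/Drd2 striatal neurons.

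Cajal-Retzius cells are early-born, reelin-secreting neurons of the marginal zone. Only 33 and 32 cells carried their markers, and 10 of 37 members were higher in them than in maturing excitatory neurons and 9 lower, beside 22.9% of all genes called (10.3% higher, 12.6% lower). The median over all genes was -0.1, and 0.15 without TMM normalization, where 65.1% rather than 45.0% of calls were higher. Syn2 stood at 286 and 349 CPM in Cajal-Retzius cells and 27 and 34.5 in maturing neurons (3.14 ± 0.17, adjusted p = 7.1e-11). Rims3 read 33.9 and 49.1 against 6.35 and 6.15 (2.53 ± 0.38, adjusted p = 5.3e-05), and Unc13c 41.4 and 31 against 6.71 and 5.11 (2.33 ± 0.42, adjusted p = 3.6e-04). No library of the 2 classes overlapped for these 3 genes. Erc2 (1187 and 984 CPM, 0.81 ± 0.17), Sv2b (1.88 ± 0.38), Stx1a (1.13 ± 0.26), Sv2a (0.82 ± 0.19), Rims2 (0.66 ± 0.16) and Syt11 (0.64 ± 0.16) were higher too, the last 4 without a call when no low-count filter was applied. Slc17a6 read 97.9 and 124 CPM (0.54 ± 0.18, adjusted p = 0.0389), and its call was lost with the replicate block (adjusted p = 0.0752, range over alternatives 0.000164 to 0.201).

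On the other side, Rab3c stood at 79.1 and 93 CPM in Cajal-Retzius cells against 344 and 345 in maturing neurons (-2.23 ± 0.2, adjusted p = 5.8e-08), and Syt4 at 52.7 and 103 against 309.5 and 339 (-2.23 ± 0.23, adjusted p = 4.7e-07). Both were lower in each library without overlap, as was Cplx2 at 37.7 and 18.1 CPM (-1.76 ± 0.28, adjusted p = 1.1e-04). Slc17a7 had 1 UMI, a ratio of 9.67 in favour of maturing neurons (95% counting interval 1.72 to 383). Rph3a had 0 UMIs, which places it at least 1.57-fold lower than in maturing neurons against a floor of 3 counts over both libraries, and both calls were lost with DESeq2. Syt5 (-1.2 ± 0.28) and Syn3 (-0.85 ± 0.19) were lower, and the calls for Snap25 (-0.57 ± 0.18) and Rims1 (-0.54 ± 0.17) were lost without TMM. Syt2 and Doc2a were untested in this comparison, with 0 UMIs in Cajal-Retzius cells each.

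Other genes of the synapse, from lists separate from the members, were counted in the same fits. Of 34 further presynaptic vesicle and fusion genes, 5 of 23 tested rose and 3 fell from radial glia to IPCs, 12 of 25 rose and 5 fell to newborn neurons, and 10 of 28 rose and 3 fell to maturing neurons. The share called in either direction was 34.8, 68 and 46.4%, beside 34.9, 42.9 and 47.0% of all genes. Synpr (synaptoporin), a relative of Syp, read 3.46 and 1.68 CPM in radial glia, 86.1 and 90.7 in IPCs, 40.4 and 50.4 in newborn and 2.12 and 1.64 in maturing neurons, with a rise of 5.12 ± 0.25, adjusted p = 6.1e-08 and later falls of -0.87 ± 0.13 and -4.53 ± 0.18. Cadps, a priming factor of dense-core vesicles, reached 621 and 669.5 CPM in newborn neurons and stood at 177 and 187 in maturing neurons (2.37 ± 0.1, then -1.77 ± 0.072). Each thus peaked before the maturing class, as did Slc17a6 and Syn2. Slc32a1, the vesicular GABA transporter, read 69 and 75.1 CPM in interneurons and 1.59 and 1.04 in maturing neurons (5.68 ± 0.18, adjusted p = 2.8e-08). Slc18a2, the vesicular monoamine transporter, read 53.6 and 45.9 CPM in striatal neurons and 6.6 and 10.2 in interneurons (2.57 ± 0.23, adjusted p = 9.7e-06). In the 4 comparisons between neurons this list counted 8 higher and 0 lower of 26 (deep-layer against upper-layer), 9 and 7 of 29 (interneurons), 1 and 6 of 25 (striatal) and 5 and 2 of 27 (Cajal-Retzius). These are 30.8, 55.2, 28 and 25.9% of the genes tested, beside 18.4, 42.8, 20.4 and 22.9% of all genes.

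Of the further active zone genes, 4 rose and 5 fell of 20 at the first, 16 rose and 2 fell of 23 at the second, and 14 rose and 3 fell of 25 at the last. The share called was 45, 78.3 and 68%, beside 34.9, 42.9 and 47.0% of all genes. Ppfia2, a liprin that assembles the active zone, went from 89.4 and 93.2 CPM in IPCs to 913 and 991 in newborn neurons (3.47 ± 0.1, adjusted p = 3.4e-08), in both libraries. Vesicle endocytosis genes counted 2 higher and 5 lower of 22, 12 and 2 of 24, and 13 and 2 of 24 at the same steps (31.8, 58.3 and 62.5% called), and Sh3gl2 (endophilin A1) rose by 3.21 ± 0.26, adjusted p = 1.0e-05 and 2.41 ± 0.1, adjusted p = 1.2e-07. Postsynaptic scaffold genes counted 5 higher and 3 lower of 19, 11 and 3 of 20, and 14 and 3 of 20 (42.1, 70 and 85% called). General neuronal genes counted 8 higher and 2 lower of 13, 9 and 2 of 14, and 10 and 4 of 14 (76.9, 78.6 and 100% called). Deep-layer against upper-layer cells gave 11 higher and 2 lower of 24 active zone genes, 6 and 1 of 24 endocytosis genes, 4 and 3 of 20 postsynaptic and 3 and 1 of 14 neuronal genes. Interneurons against maturing neurons gave 6 and 7 of 25, 6 and 7 of 24, 7 and 8 of 20, and 4 and 6 of 14 in the same order, and Nrxn3 (neurexin 3) there stood at 17574 and 19072 against 61.2 and 54.4 CPM. Striatal neurons against interneurons gave 4 and 7 of 23, 0 and 4 of 23, 5 and 5 of 20, and 4 and 7 of 14. Cajal-Retzius cells gave 6 and 8 of 25, 6 and 1 of 24, 1 and 9 of 20, and 4 and 6 of 14. The share of all genes called in these 4 comparisons was, in order, 18.4, 42.8, 20.4 and 22.9%.

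Some members were not confined to neural cells. Stx1a read 65.1 and 82.1 CPM in endothelial cells, above its level in maturing neurons (22.9 and 24.3 CPM), and 20% of thinned endothelial cells held a Stx1a UMI. Erc1 (119.8 and 162 CPM), Unc13b (62.5 and 74.3 CPM) and Nsf (76.8 and 48.9 CPM), which act in secretion outside synapses as well, had endothelial levels of the same order as neurons, and Vamp1 (19.5 and 11.7 CPM) was above every neural class in both libraries. Syt11, by contrast, read 18.2 and 9.78 CPM in endothelial cells. The endothelial sums held 55 and 30 cells and were compared without a test. The members span 3.9 to 856.3 kb of genome (median 69.6 kb, 16 over 100 kb), and a share of the UMIs of long genes may come from introns, since the sources used here do not state whether introns were counted. For this reason no level was compared between genes.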

How the data were processed

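Single-cell libraries of 2 WT samples were read as deposited: per the labels and file headers, the authors processed the reads with Cell Ranger 7.0.0 against mm10, and the matrices hold raw UMI counts per gene and cell, not normalized. Whether introns were counted, and the annotation version, are not given in the sources used here. The deposited barcodes had at least 500 UMIs (14136 and 13046 barcodes). Cells were retained at 1500 to 60000 UMIs when less than 10% of these were mitochondrial (8139 and 8209), and likely doublets (920 and 857), scored against simulated doublets at a rate of 0.8% per 1000 cells, were left out. The libraries shared 26 barcodes after filtering. Their summed counts differed far beyond sampling noise (chi-square 23.8 per degree of freedom over 20599 genes). Captures of the same tissue could differ so too, and this value cannot show that the libraries are separate embryos. They counted as 2 samples because the labels number them separately.

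Classes were gated on raw UMIs of marker genes (for example at least 6 UMIs over 3 radial glia genes, or 3 UMIs over interneuron genes), with at most 1 UMI of other classes' genes for most gates, fewer than 3 UMIs of any vascular, fibroblast or microglial list and under 5% hemoglobin UMIs. The gate thresholds were set after the cells had been seen. Counts were summed per library and class and compared in 2-class fits with edgeR 4.0.16 in R 4.3.3 (TMM, filterByExpr, quasi-likelihood test, Benjamini-Hochberg adjustment over all genes, threshold 0.05). SE is the size of the log2 difference over the root of the F statistic. CPM values use the plain UMI total of the class. Shares of cells used each cell thinned to 2000 UMIs, with exact (Clopper-Pearson) 95% intervals and a floor of 3 counts where a count was 0. Cell handling used Python 3.11.15 with scanpy 1.11.5.

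All 39 members are described. Those named with full values in a comparison were called, had the same sign in both libraries and at least 20 UMIs in the higher class, up to 10 highest and 10 lowest; for other lists up to 3 each. The members, lists and cell classes were chosen with earlier results of these data known. Both classes of each fit were drawn from the same 2 libraries, and the library number therefore pairs them (correlation of same-library deviations 0.13 to 0.34). On simulated counts with known changes, each comparison recovered 97 to 100% of 4-fold and 73 to 88% of 2-fold changes. Between 3 and 14 unchanged genes were called as well. Only genes with at least 10 expected UMIs in every sum were changed, all genes shared 1 dispersion, and libraries were drawn without pairing. The shares recovered therefore do not carry over to members with few UMIs. Alternatives were DESeq2 1.42.0, no TMM, no low-count filter, the library as a block, all classes in 1 fit, doublets kept, 3000 to 30000 UMIs with under 5% mitochondrial UMIs, stricter gates, Leiden clusters and each library left out. Promoter windows came from RefSeq (GRCm38.p6); the 8 members without one were Syn3, Syt4, Syt5, Syt7, Doc2a, Snap25, Vamp2 and Rims2.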

Additional observations from a re-analysis of the deposited data

How the results depend on the processing

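Of the 102 named member results, 71 kept their call and direction under every alternative with a test and 31 lost the call under at least 1, most often with DESeq2. No member reversed. Leaving out a library gave no call and could not reverse a named result, because naming required the same sign in both libraries. Of 288 named results with the other lists, 1 reversed: Dlgap2, IPCs against radial glia, read -0.61 when doublets were kept. DESeq2 gave 2 members lower in IPCs than radial glia, 1 lower in newborn neurons than IPCs, 6 higher in deep-layer cells, 4 higher in interneurons and 3 higher in striatal neurons. Without the low-count filter 4 were higher in interneurons and 5 in Cajal-Retzius cells, and the stricter cell filter left 1 lower in newborn neurons. With the replicate block, 5 were lower in deep-layer cells and 8 higher in striatal neurons, and the call of Slc17a6 in Cajal-Retzius cells was lost. It changed no other call named here. The members' median difference with either library left out lay between 0.65 and 0.66 (IPCs), 1.11 and 1.22 (newborn), 0.49 and 0.64 (maturing), 0.030 and 0.085 (striatal) and 0.04 and 0.084 (Cajal-Retzius). It was 0.43 with doublets kept (IPCs), 0.76 and 0.70 with Leiden clusters (newborn and maturing) and 0.37 without TMM (Cajal-Retzius). It changed sign near 0 without the low-count filter (striatal -0.00081, Cajal-Retzius -0.046) and with stricter gates (striatal -0.015). The causes of these changes were not tested. Shares of cells scale with depth, and 14 and 15 of 16 moved when cells were thinned to 1000 UMIs or not thinned. Among the cells used, 47.3% and 43.8% met no gate, and 156 newborn, 134 striatal and 128 interneuron cells lay at a gate's threshold. The Cajal-Retzius sums held only 265467 and 387158 UMIs.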
